A study of Mus musculus with 6 samples.

Results

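The genes described here encode SR proteins, heterogeneous nuclear ribonucleoproteins (hnRNPs), the SF3A and SF3B subunits of the U2 snRNP, the U2AF heterodimer, the THO complex and the mRNA export receptors of the NXF and NXT families. They were chosen by name: every row of the deposited table annotated as protein coding whose symbol begins with Srsf, Hnrnp, Sf3a, Sf3b, U2af, Thoc, Nxf or Nxt and goes on only in digits and lower-case letters. This gave 56 of the 55573 rows: 11 SR proteins, 20 hnRNPs, 12 U2 snRNP and U2AF genes, 7 THO genes and 6 export receptor genes. The study compared, by bulk RNA-seq, 3 libraries of Hepa1-6, a mouse hepatoma line, edited at the Matr3 gene with CRISPR/Cas9 and labelled Matr3 knockout, with 3 libraries of the unedited line labelled WT. All were grown in DMEM with fetal bovine serum and no other agent is named. The labels do not say whether the knockout is 1 clone, or whether libraries of 1 group are separate cultures, so the p-values reflect the spread between libraries alone, and that spread may be technical.

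Newly made transcripts are bound by hnRNPs, which package the RNA and often oppose the use of splice sites, and by SR proteins, which carry domains rich in arginine and serine and often favour it. U2AF marks the 3′ splice site and recruits the U2 snRNP, whose SF3A and SF3B proteins hold it to the branch point. The spliced mRNA is then handed by the THO complex and its partners to the export receptor, a pair of an NXF and an NXT protein, which carries it through the nuclear pore. Matrin 3, the product of Matr3, is an RNA-binding protein of the same nuclear compartment and is known as a regulator of alternative splicing. Counts per gene show the amount of mRNA of each factor, not its splice forms, its protein or the splicing it directs.

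Libraries held 20736570 to 30794032 counts. Matr3 itself was at 76.0, 86.1 and 75.3 CPM (counts scaled to a common library size, with TMM factors) in knockout libraries 1 to 3 and at 129, 125 and 134 CPM in wild-type libraries 1 to 3, so its mRNA was lower in every library labelled knockout but not absent (log2 fold change -0.71, SE 0.0899; adjusted p = 0.00270 by edgeR quasi-likelihood). Knockout libraries 1 and 3 lay close together and knockout library 2 stood apart from them. A library's deviation from the mean over all libraries correlated with the GC content of transcripts at 0.26, -0.27 and 0.26 in knockout libraries 1 to 3 and at -0.03, -0.03 and -0.16 in the wild-type libraries, across genes, which are not independent replicates. The label of a liver cancer line was checked against 10 hepatocyte and hepatoma markers: their summed level was 4.31 to 6.58 CPM in the knockout and 7.11 to 10.6 CPM in the wild type, Ttr and Serpina1a were at 0, and Alb and Hnf4a had 1 count each in all 6 libraries. Afp was the highest of these 10, with a mean of 3.80 CPM. Defining hepatocyte genes were thus at or near 0 in both groups. Of 5 leukocyte and macrophage markers only Cd68 was above a few counts, at 12.4 to 15.9 CPM in the knockout and 10.6 to 11.9 CPM in the wild type. Ptprc had 6 counts in all, Csf1r 5, and Adgre1 and Lyz2 were at 0. The 4 cholangiocyte markers summed to 645 to 684 CPM in the knockout and 287 to 316 CPM in the wild type, nearly all of it Krt19, which rose. Sox9 had a mean of 18.9 CPM and Epcam of 1.53 CPM, and Krt7 had 1 count. The 5 fibroblast and stellate markers summed to 528 to 640 and 585 to 686 CPM, nearly all of it Col3a1, while Col1a2 (mean 0.344 CPM) and Dcn (7 counts) were near 0. The 4 endothelial markers summed to 0.844 to 1.53 and 2.85 to 3.56 CPM. Of 4 endothelial and 5 fibroblast and stellate markers, Cdh5 and Pdgfrb fell and Col1a1 rose. The part of other cell types in the results that follow was not tested, and in bulk libraries fewer cells of a type and less RNA per cell cannot be told apart.

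Expression of 52 of the 56 genes was high enough to test; Nxf2 and Nxf3 had 0 counts in every library, Srsf12 had 1 count and U2af1l4 had 8 counts in all. Of the 52, 6 fell in the knockout, 1 rose and 45 did not pass (edgeR quasi-likelihood test, p adjusted by Benjamini-Hochberg over all 14842 tested genes and called under 0.05). Over all tested genes 7.48% fell and 7.69% rose, 15.2% in either direction, so the count called among these 52 was near the background. The 6 that fell were Hnrnpa3, Thoc2, Srsf11, Nxf1, Srsf2 and Srsf3, and the 1 that rose was Nxf7. Their changes were small, from 1.25-fold lower for Srsf3 to 1.81-fold lower for Hnrnpa3. An unadjusted p under 0.05 was found in 18 of the 52, against 31.0% of all tested genes in either direction. Of the 18, 16 were lower, and the lower share over all tested genes was not computed. In all, 39 of the 52 had a negative log2 fold change (knockout over wild type), and their median was -0.17, against -0.02 over all tested genes, of which 52.2% were negative. In 26 of the 52, every knockout library lay on the same side of every wild-type library, 22 of them with the knockout lower. The groups did not overlap in 36.6% of all tested genes, and in 18.4% with the knockout lower. These counts moved with the share of all genes called. Without knockout library 2, 16 of the genes fell and 5 rose, when 13.1% of all tested genes fell and 14.95% rose. Without knockout library 1, 0 fell and 1 rose (2.53% and 3.09% of all genes), and without knockout library 3, 0 and 1 (2.46% and 2.97%). Without wild-type library 1, 4 fell and 1 rose (6.56% and 6.92%), without wild-type library 2, 2 and 1 (3.05% and 3.03%), and without wild-type library 3, 1 and 0 (2.71% and 2.57%). With knockout library 2 and wild-type library 1 both left out, 24 fell and 14 rose, when 7556 of 14825 genes were called, 25.7% lower and 25.3% higher.

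**Figure D1:**
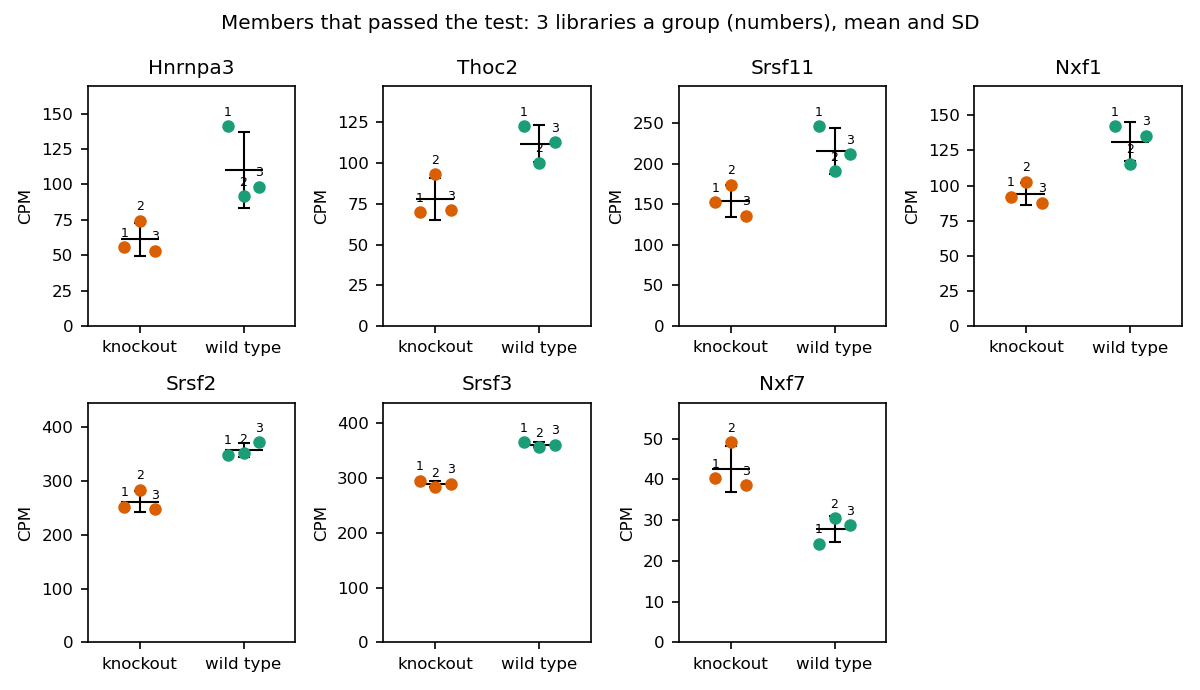
Level of the 7 genes that passed the test, in CPM on an axis from 0, in each of 3 knockout and 3 wild-type libraries (points with the library number; bars give the mean and SD). The groups do not overlap in any of the 7, Nxf7 alone is higher in the knockout, and knockout library 2 lies nearest to the wild type in Hnrnpa3, Thoc2, Srsf11, Nxf1 and Srsf2.

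Of the 10 tested SR genes 3 fell, 0 rose and 7 did not pass, against 7.48% lower and 7.69% higher over all tested genes, and 9 of the 10 had a negative log2 fold change, with a median of -0.31. Summed over the SR genes, the level per length was 488 ± 7.10 FPKM in the knockout and 578 ± 26.4 FPKM in the wild type (SD, n = 3 each). At an unadjusted p under 0.05 none of the 10 was higher, and DESeq2 and limma voom called no SR gene higher. Srsf9 was called higher without knockout library 2, and Srsf9 and Srsf5 were called higher with knockout library 2 and wild-type library 1 both left out. Srsf1, Srsf2, Srsf3, Srsf6, Srsf10 and Srsf11 were called lower in both fits, in which 13.1% and 25.7% of all tested genes fell. Srsf2, also called SC35, a splicing activator that also marks nuclear speckles, had the highest level per length of the group, with a mean of 104 FPKM. Srsf2 (ENSMUSG00000034120; chromosome 11, 116740727 to 116743920, minus strand) was at 252, 284 and 248 CPM in knockout libraries 1 to 3 and at 348, 351 and 371 CPM in wild-type libraries 1 to 3. All 3 knockout libraries lay below all wild-type libraries, with knockout library 2 the nearest. Knockout and wild type averaged 261 ± 19.7 and 357 ± 12.6 CPM (SD, n = 3 each), and the log2 fold change was -0.45 (SE 0.0913; adjusted p = 0.0154 by edgeR quasi-likelihood). Mettl23 and Mfsd11 overlap Srsf2 on the opposite strand, with 7.59% and 5.68% as many counts, and strandedness is not stated, so reads of these genes may be exchanged with it.

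Srsf3, the smallest canonical SR protein and a factor that also links splicing to export by NXF1, was the most even of the genes that passed. Srsf3 (ENSMUSG00000071172; chromosome 17, 29251602 to 29262347, plus strand) stood at 295, 284 and 290 CPM in knockout libraries 1 to 3 and 365, 357 and 361 CPM in the wild type, without overlap. Its log2 fold change was -0.32 (SE 0.0789; adjusted p = 0.0309 by edgeR quasi-likelihood), the smallest in size of the 7. With the per-library trend with GC content and length removed it was -0.15 and did not pass (adjusted p = 0.363). Srsf11, a more distant SR-related protein, was at 152, 174 and 136 CPM in the knockout and 247, 191 and 211 CPM in the wild type. Srsf11 (ENSMUSG00000055436; chromosome 3, 157716110 to 157742276, minus strand) fell by 0.49 on the log2 scale (SE 0.130; adjusted p = 0.0395 by edgeR quasi-likelihood). The nearest libraries of the groups were knockout library 2 and wild-type library 2. Leaving out any of knockout libraries 1 and 3 and wild-type libraries 2 and 3 ended the calls of Srsf2 (adjusted p 0.0658 to 0.116) and Srsf3 (0.112 to 0.184). Leaving out any library but knockout library 2 ended that of Srsf11 (0.0617 to 0.173).

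Of the SR genes that did not pass, Srsf10, which turns into a splicing repressor when dephosphorylated, had the smallest p. It was at 155, 175 and 153 CPM in the knockout and 204, 188 and 202 CPM in the wild type, again without overlap (log2 fold change -0.30, SE 0.0911; adjusted p = 0.0614 by edgeR quasi-likelihood). Srsf6 (-0.35), Srsf1 (-0.24) and Srsf4 (-0.21) also had groups that did not overlap, while Srsf5 (-0.34) and Srsf7 (-0.12) overlapped. In Srsf5 the libraries did not order by genotype: wild-type library 1 stood at 257 CPM, above 102 to 151 CPM in the knockout and 127 and 130 CPM in the other wild-type libraries. Srsf9 was the only tested SR gene with a positive log2 fold change, 0.21, with groups that did not overlap, and did not pass.

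**Figure D2:**
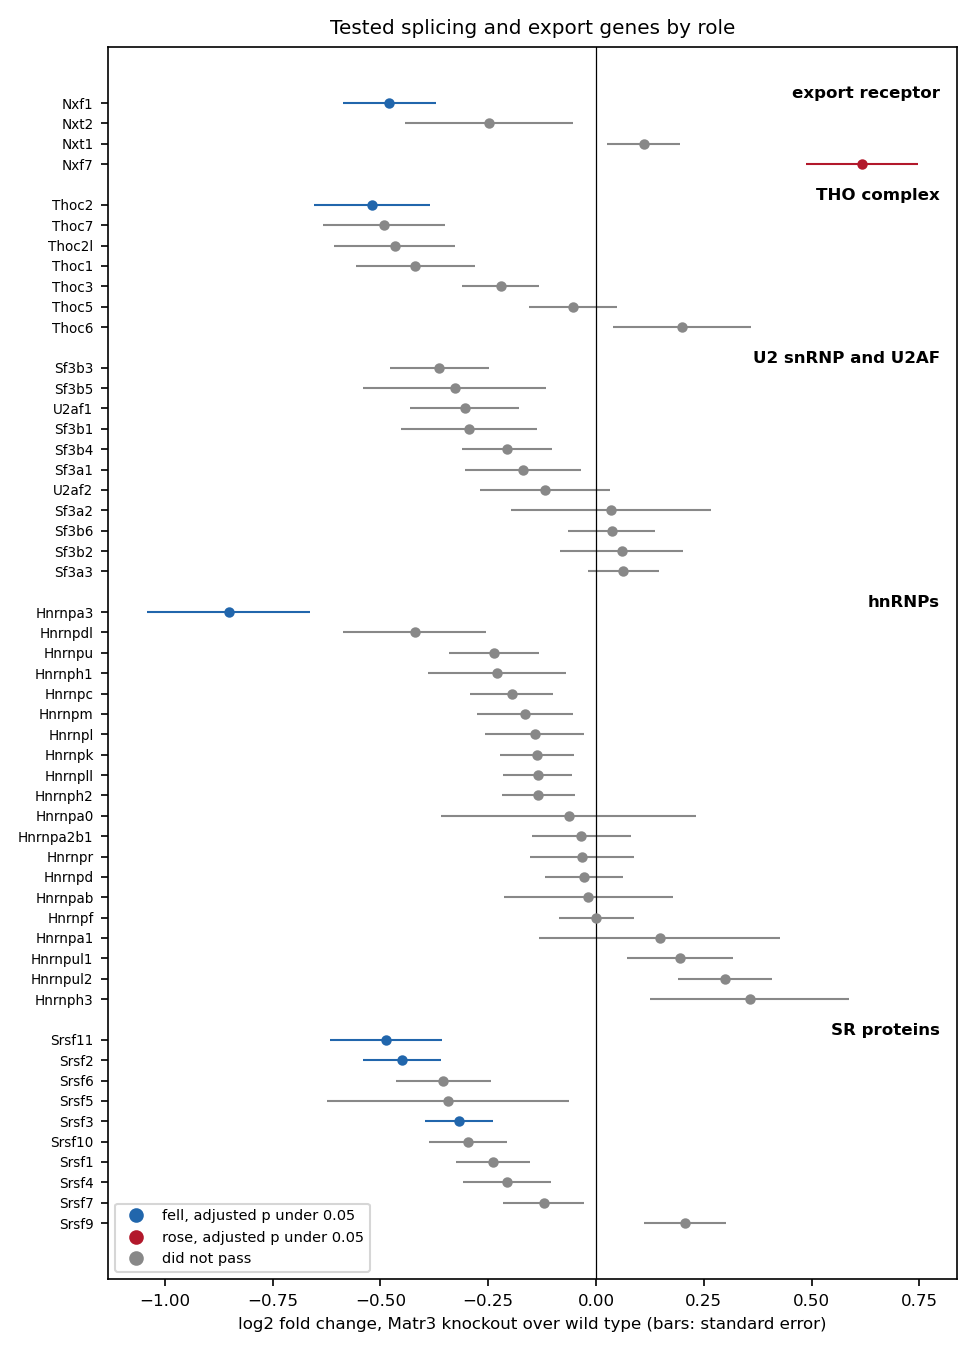
Log2 fold change, knockout over wild type, with its standard error for each of the 52 tested genes, grouped by role; blue genes fell, the red gene rose and grey genes did not pass. SR and THO genes lie mostly left of 0, with medians of -0.31 and -0.42, while hnRNPs and U2 genes lie nearer to it, with medians of -0.10 and -0.17.

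The promoters of Srsf2, Srsf3 and Nxf7 are shown because the first pair are among the 3 SR genes that fell and Nxf7 is the only gene that rose. Each runs from 250 bases before to 50 bases after the annotated start, on the strand of the gene, from RefSeq on GRCm38.p6, at chr11:116853045-116853344 (minus strand), chr17:29032410-29032709 (plus strand) and chrX:135598732-135599031 (minus strand). Capitals mark matches to 6 motifs searched on both strands: the CCAAT box, the TATA box (searched as TATAAA), the core bound by ETS factors (searched as CCGGAAG), the cyclic AMP response element or CRE (searched as TGACGTCA), the palindromic NRF1 motif and the interferon response element. No match overlaps another in these windows.
Srsf2: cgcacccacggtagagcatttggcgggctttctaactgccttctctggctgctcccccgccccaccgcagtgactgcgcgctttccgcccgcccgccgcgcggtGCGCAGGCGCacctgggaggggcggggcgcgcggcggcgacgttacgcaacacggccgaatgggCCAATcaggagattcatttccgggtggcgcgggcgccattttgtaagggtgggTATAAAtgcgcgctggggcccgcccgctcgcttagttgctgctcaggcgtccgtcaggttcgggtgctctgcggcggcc
Srsf3: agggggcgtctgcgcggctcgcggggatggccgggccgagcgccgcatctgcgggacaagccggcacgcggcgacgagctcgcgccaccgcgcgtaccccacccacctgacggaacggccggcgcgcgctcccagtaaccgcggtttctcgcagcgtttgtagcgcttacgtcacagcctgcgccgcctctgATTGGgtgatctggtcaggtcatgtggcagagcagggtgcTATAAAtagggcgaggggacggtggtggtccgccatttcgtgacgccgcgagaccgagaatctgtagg
Nxf7: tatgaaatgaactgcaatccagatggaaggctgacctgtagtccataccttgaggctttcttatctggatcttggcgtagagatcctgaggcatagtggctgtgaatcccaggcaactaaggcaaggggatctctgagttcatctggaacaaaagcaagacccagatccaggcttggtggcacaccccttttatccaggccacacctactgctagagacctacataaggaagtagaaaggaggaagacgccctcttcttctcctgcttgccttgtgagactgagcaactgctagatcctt
Both SR promoters shown hold a CCAAT motif and a TATAAA motif upstream of the start, and that of Srsf2 also an NRF1 motif. The window of Srsf11, an SR gene that also fell, holds 1 ETS match and neither CCAAT nor TATAAA. That of Hnrnpa3 holds 2 CCAAT matches. The Nxf7 window holds none of the 6, and neither do those of Nxf1 and Thoc2, which fell. The Nxf7 window holds 2 CpG dinucleotides against 39 for Srsf2 and 42 for Srsf3. RefSeq windows matched 44 of the 52 tested genes, with a median of 25.5 CpG against 7 over 27025 genes. Of the 44, 22 held CCAAT (50%, against 37.92% of all genes), 13 held CCGGAAG (29.55% against 9.121%), 6 the NRF1 motif (13.64% against 4.784%) and 5 TATAAA (11.36% against 14.16%). TGACGTCA and the interferon response element were in 0 of the 44, against 1.876% and 0.84% of all genes. The 27025 genes take in genes not tested here, and shares over the tested genes alone were not computed. These are matches of letters in CpG-rich windows and no test was made.

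On their own rows 1 of 20 hnRNPs fell, 0 rose and 19 did not pass. Over all tested genes the shares were 7.48% lower and 7.69% higher. The hnRNPs had a median log2 fold change of -0.10. DESeq2 and limma voom called Hnrnpa3 lower and none of the 20 higher. At an unadjusted p under 0.05, 2 were lower and 1, Hnrnpul2, was higher, against 31.0% of all tested genes in either direction. Hnrnpul1 and Hnrnpul2 were called higher without knockout library 2. With wild-type library 1 left out as well, so were Hnrnpa0, Hnrnpa1, Hnrnpa2b1, Hnrnpab, Hnrnph3 and Hnrnpr. In that fit Hnrnpa3, Hnrnpc, Hnrnpk, Hnrnpll and Hnrnpu were called lower, when 25.7% of all tested genes fell and 25.3% rose. On the genes' own rows Hnrnpab, a relative of Hnrnpd and Hnrnpdl, had the highest level per length, with a mean of 248 FPKM. Next was Hnrnpa2b1 at 190 FPKM, which sorts RNAs for transport. Gm10052, a pseudogene 100% identical to Hnrnpa1 over its aligned length, had a mean of 822 FPKM. Its reads cannot be told apart from those of Hnrnpa1, so the ranking holds for own rows only. Hnrnpab was at 800, 469 and 798 CPM in knockout libraries 1 to 3 and 752, 706 and 635 CPM in the wild type. Knockout library 2 was the lowest of all 6 and the other knockout libraries the highest, so the means, 689 ± 190 and 698 ± 58.8 CPM (SD, n = 3 each), were nearly equal (log2 fold change -0.02, SE 0.196; adjusted p = 0.960 by edgeR quasi-likelihood). Hnrnpul2, an SAF-A relative that takes part in the DNA damage response, was at 284, 231 and 295 CPM against 224, 219 and 216 CPM, without overlap (0.30, SE 0.108; adjusted p = 0.10 by edgeR quasi-likelihood). Hnrnpu, which encodes SAF-A, a scaffold protein of the nuclear matrix, had a log2 fold change of -0.24, Hnrnpc, the core protein that binds uridine tracts, -0.20, Hnrnpk, which binds cytosine tracts, -0.14 and Hnrnpl, which binds CA repeats, -0.14. None of these 4 passed. The groups of each did not overlap, as in 8 of the 20 hnRNPs and in 36.6% of all tested genes. In Hnrnpl the nearest libraries were knockout library 1, at 393 CPM, and wild-type library 3, at 394 CPM. Hnrnpdl, at -0.42, and Hnrnpll, at -0.14, also had groups that did not overlap, and neither passed. Hnrnph1 was at -0.23, Hnrnpm at -0.17 and Hnrnph2 at -0.13, with overlapping groups. The remaining hnRNPs lay between -0.06 (Hnrnpa0) and 0.36 (Hnrnph3), with Hnrnpr and Hnrnpa2b1 at -0.03, Hnrnpd at -0.03, Hnrnpf at 0.00, Hnrnpa1 at 0.15 and Hnrnpul1 at 0.20. Rufy2 overlaps Hnrnph3 on the opposite strand, with 88.4% as many counts.

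Hnrnpa3, a relative of Hnrnpa1 that binds RNA and telomeric DNA, showed the deepest fall of all 52 genes on its own row. Hnrnpa3 (ENSMUSG00000059005; chromosome 2, 75489605 to 75499751, plus strand) had 55.8, 74.3 and 53.2 CPM in the knockout and 141, 91.6 and 98.4 CPM in the wild type, with no overlap. Knockout and wild type averaged 61.1 ± 11.5 and 110 ± 26.9 CPM (SD, n = 3 each), and the log2 fold change was -0.85 (SE 0.190; adjusted p = 0.0213 by edgeR quasi-likelihood). Without knockout library 1 or 3 it was no longer called (adjusted p 0.0837 to 0.0841). That row, however, holds a small part of the reads that match this gene. Pseudogene rows of the table were matched to these genes by aligning GENCODE M21 transcripts, with at least 90% identity over at least 50% of the pseudogene's length. Of 3966 pseudogene rows with a count, 67 matched best to 19 of the genes. For Hnrnpa3, 25 pseudogenes held 90.04% of the 132514 counts on gene and copies together, for U2af1 3 copies held 72.5% of 31080 and for Hnrnpa1 10 copies held 70.9% of 197519. Copies also held 44.2% for Hnrnpk, 27.8% for Sf3b4, 25.6% for Hnrnpf, 18.4% for Srsf5, 17.8% for Srsf3, 11.7% for U2af2 and under 5% for each of the other 10.

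To show what a read shared by gene and copy looks like, 90 bases of coding sequence are printed, bases 571 to 660 from the start codon of Hnrnpa3 and bases 1 to 90 of Hnrnpa1 and U2af1, read from GENCODE M21 transcripts (GRCm38). Each is shown with the copies that hold the most counts: Gm6793 on chromosome 8, Gm5641 on chromosome 3 and Gm12960 on chromosome 4 for Hnrnpa3, Gm10052 on chromosome 9 for Hnrnpa1 and Gm10232 on chromosome 17 for U2af1. The windows were selected for likeness: of windows taken every 30 bases, only those with at most 3 differing bases in each copy shown, none of them adjoining or at the window's ends, were considered (22 of 35 for Hnrnpa3, 27 of 35 for Hnrnpa1 and 15 of 21 for U2af1), and of these the window with the most differences was taken. Capitals mark bases that differ between a gene and a copy shown with it.
Hnrnpa3: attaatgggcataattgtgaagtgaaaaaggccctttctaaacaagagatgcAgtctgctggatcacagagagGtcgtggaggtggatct
Gm6793: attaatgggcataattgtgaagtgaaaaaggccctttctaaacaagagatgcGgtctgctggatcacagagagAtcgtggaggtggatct
Gm5641: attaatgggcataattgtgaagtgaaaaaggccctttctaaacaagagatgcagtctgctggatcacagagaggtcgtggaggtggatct
Gm12960: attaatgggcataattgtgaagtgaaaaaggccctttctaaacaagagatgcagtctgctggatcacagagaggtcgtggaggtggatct
Hnrnpa1: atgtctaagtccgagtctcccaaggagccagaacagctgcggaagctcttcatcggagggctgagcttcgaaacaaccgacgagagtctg
Gm10052: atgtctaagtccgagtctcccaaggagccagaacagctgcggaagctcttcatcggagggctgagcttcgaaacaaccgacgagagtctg
U2af1: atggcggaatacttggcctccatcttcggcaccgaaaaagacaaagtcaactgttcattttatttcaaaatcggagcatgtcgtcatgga
Gm10232: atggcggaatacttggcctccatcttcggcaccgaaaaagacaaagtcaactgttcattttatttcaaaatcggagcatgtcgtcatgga
Gm5641 and Gm12960 have 0 differing bases in this window and Gm6793 has 2, and the windows of Hnrnpa1 and U2af1 are identical to those of their copies. Over the aligned length Gm5641 and Gm10052 were 100% identical to their genes, Gm10232 99.7%, Gm12960 99.2% and Gm6793 98.3%. A read from such a stretch fits gene and copy alike, so whether counts on a copy come from the copy or from the gene's mRNA cannot be told apart here.

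With the counts of the copies added to each gene, an alternative chosen after seeing the data, the fall of Hnrnpa3 was no longer called. Gene and copies together stood at 900, 585 and 902 CPM in knockout libraries 1 to 3 and 1034, 887 and 829 CPM in the wild type, so the groups overlapped. The log2 fold change was -0.20 (SE 0.174; adjusted p = 0.463 by edgeR quasi-likelihood), and with the trend in GC and length also removed it was -0.03 (adjusted p = 0.948). The copies did not move together: Gm5641, at 216, 209 and 214 CPM in the knockout and 204, 193 and 192 CPM in the wild type, had a log2 fold change of 0.12. Gm6793 was at 291, 125 and 291 CPM against 276, 225 and 206 CPM (0.00), and Gm12960 at 191, 82.0 and 201 CPM against 234, 227 and 187 CPM (-0.45, adjusted p = 0.336). Knockout library 2 was the lowest of 6 in both. Of the 36 copies with enough counts to test, 34 did not pass and 2 fell, both of them copies of Hnrnpa3. These were Gm8991 (-0.50, adjusted p = 0.00953 by edgeR quasi-likelihood) and Gm5940 (-0.95, 0.0196).

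Hnrnpa1, which represses splice sites and shuttles between nucleus and cytoplasm, went from a log2 fold change of 0.15 on its own row to 0.22 with copies (adjusted p = 0.383). In both, wild-type library 1 lay near knockout libraries 1 and 3. On its own row Hnrnpa1 was at 434, 259 and 482 CPM in the knockout and 497, 282 and 282 CPM in the wild type. U2af1, the small subunit of U2AF that reads the AG at the 3′ splice site, went from -0.30 on its own row (adjusted p = 0.143) to -0.05 with copies (0.726), at 202, 183 and 199 CPM against 205, 200 and 199 CPM. Srsf3 stayed called with its 4 copies added, at 365, 345 and 353 CPM against 432, 433 and 444 CPM (-0.30, SE 0.0801; adjusted p = 0.0401 by edgeR quasi-likelihood). With copies added, 5 of the 52 fell and 1 rose, against 7.50% and 7.73% of all tested genes.

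**Figure D3:**
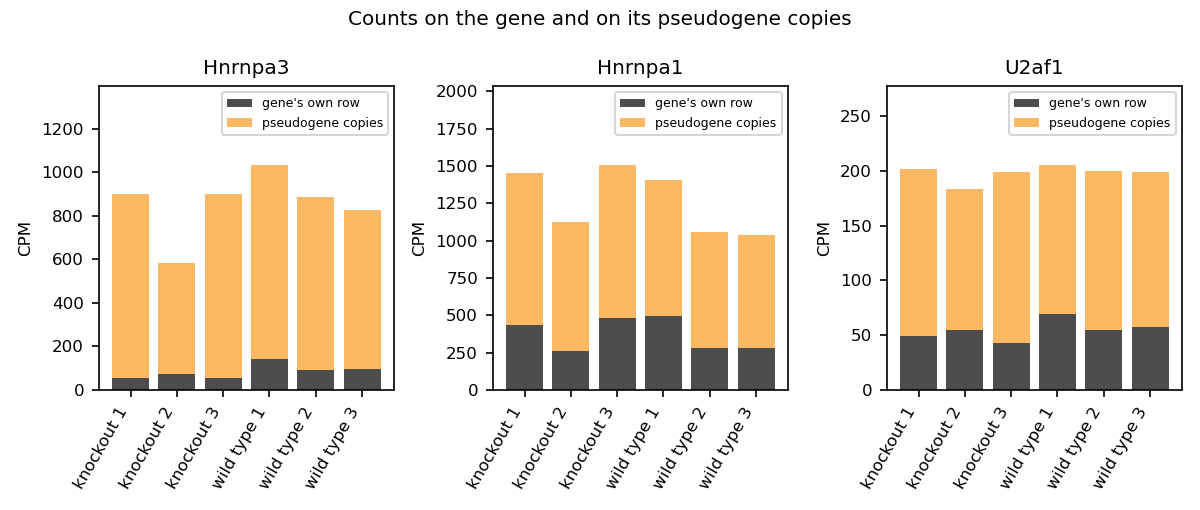
CPM on the row of Hnrnpa3, Hnrnpa1 and U2af1 (dark) and on their pseudogene copies (light), stacked from 0, in each library. Copies hold 86.3% to 94.1% of the Hnrnpa3 counts in single libraries, and the knockout and wild-type totals overlap for all 3 genes.

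No gene of the U2 snRNP and U2AF passed: 0 of 11 fell and 0 rose (edgeR quasi-likelihood test). The shares over all tested genes were 7.48% and 7.69%. An unadjusted p under 0.05 was found in 2, both lower, against 31.0% of all tested genes in either direction. The median log2 fold change of the 11 was -0.17. DESeq2 called 1 of them, Sf3b3, and limma voom 0. Sf3b1, Sf3b3 and U2af1 were called lower without knockout library 2. With both knockout library 2 and wild-type library 1 left out, Sf3a2 and Sf3b2 were called higher. In that fit Sf3a1, Sf3b1, Sf3b3, Sf3b4 and U2af1 were called lower, when 25.7% of all tested genes fell and 25.3% rose. Gm10232, the copy of U2af1 with the most counts, had a mean of 185 FPKM, so levels per length are compared on the genes' own rows only. There Sf3b4, an RNA-binding subunit of SF3B that contacts the pre-mRNA near the branch point, was the highest, with a mean of 71.0 FPKM. It was at 153, 128 and 148 CPM in the knockout and 156, 180 and 159 CPM in the wild type (log2 fold change -0.21, SE 0.104; adjusted p = 0.218 by edgeR quasi-likelihood), groups that do not overlap but nearly touch. Sf3b3, the propeller scaffold of SF3B, had the smallest p. It was at 350, 399 and 340 CPM against 405, 498 and 498 CPM, without overlap (-0.36, SE 0.115; adjusted p = 0.0678 by edgeR quasi-likelihood). Cog4 overlaps it on the opposite strand, with 18.9% as many counts. Sf3b1, which clasps the branch point adenosine and is often mutated in blood cancers, had a log2 fold change of -0.29 with overlapping groups: knockout library 2, at 418 CPM, lay among the wild-type libraries, at 373 to 432 CPM, while the other knockout libraries were at 288 and 281 CPM. Sf3b5 (-0.33), Sf3a1 (-0.17) and U2af2 (-0.12), the large U2AF subunit that binds the polypyrimidine tract, did not pass either, and Sf3a2 (0.03), Sf3b6 (0.04), Sf3b2 (0.06) and Sf3a3 (0.06) lay close to 0.

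In the THO complex 1 of 7 genes fell, 0 rose and 6 did not pass (edgeR quasi-likelihood test). Over all tested genes 7.48% fell and 7.69% rose. The median log2 fold change of the 7 was the lowest of the 5 groups, -0.42. At an unadjusted p under 0.05, 5 were lower and none was higher, against 31.0% of all tested genes in either direction. DESeq2 called Thoc2, Thoc2l and Thoc7 lower and limma voom Thoc2 and Thoc7, and neither called a THO gene higher. With DESeq2 9.79% of all tested genes fell, and with limma voom 7.53%. Thoc6 was called higher without knockout library 2, and also with wild-type library 1 left out as well. Thoc1, Thoc2, Thoc2l and Thoc7 were called lower in both fits, and Thoc3 and Thoc5 in the latter. In these fits 13.1% and 25.7% of all tested genes fell. Thoc2, the large scaffold subunit, is on chromosome X (ENSMUSG00000037475; 40883868 to 41009551, minus strand) and was at 70.0, 93.1 and 71.2 CPM in the knockout and 123, 100 and 113 CPM in the wild type. The groups did not overlap, although knockout library 2 and wild-type library 2 lay close. The log2 fold change was -0.52 (SE 0.134; adjusted p = 0.0355 by edgeR quasi-likelihood), and -0.27 once the GC and length trend was removed (adjusted p = 0.0466). The call ended without any library but knockout library 2 (adjusted p from 0.0646 to 0.152). Thoc7, a small coiled-coil subunit, was at 17.96, 26.3 and 23.5 CPM against 32.2, 32.2 and 30.8 CPM (-0.49, SE 0.141; adjusted p = 0.0515 by edgeR quasi-likelihood). Thoc2l, a gene similar to Thoc2 (-0.47), and Thoc1 (-0.42) did not pass either, and reads of Thoc2 and Thoc2l may be exchanged. Thoc3, the subunit with the highest level per length at a mean of 29.9 FPKM, was at 67.0, 66.5 and 68.0 CPM against 71.1, 80.2 and 83.5 CPM (-0.22, adjusted p = 0.131). In all 5 of these genes the groups did not overlap, with the knockout lower, as in 18.4% of all tested genes. Thoc5 (-0.05) and Thoc6 (0.20) overlapped. Usp14 overlaps Thoc1, Atxn7 overlaps Thoc7 and Hcfc1r1 overlaps Thoc6, each on the opposite strand, with 382%, 76.3% and 85.9% as many counts.

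Of the 4 tested export receptor genes 1 fell, 1 rose and 2 did not pass, against 7.48% lower and 7.69% higher over all tested genes. Nxf1 and Nxt2 were called lower and Nxf7 higher without knockout library 2, and also with wild-type library 1 left out as well. In these fits 13.1% and 25.7% of all tested genes fell, and 14.95% and 25.3% rose. Nxf1, the general mRNA export receptor, fell and Nxf7, another member of its family, rose, while its partners Nxt1 and Nxt2 did not pass. Nxf1 (ENSMUSG00000010097; chromosome 19, 8734437 to 8748286, plus strand) reached 91.9, 103 and 87.7 CPM in the knockout and 142, 116 and 135 CPM in the wild type. All knockout libraries lay below all wild-type libraries. Knockout and wild type averaged 94.1 ± 7.68 and 131 ± 13.9 CPM (SD, n = 3 each), and the log2 fold change was -0.48 (SE 0.109; adjusted p = 0.0229 by edgeR quasi-likelihood). Nxf7 (ENSMUSG00000031410; chromosome X, 134480304 to 134499526, minus strand) was at 40.3, 49.0 and 38.6 CPM against 24.2, 30.5 and 28.7 CPM. Every knockout library lay above every wild-type library, and the rise was 1.53-fold (log2 fold change 0.62, SE 0.131; adjusted p = 0.0179 by edgeR quasi-likelihood). Per length, Nxf1 (mean 25.3 FPKM) lay above Nxf7 (12.97 FPKM). Nxt1, the common NXT partner, was at 56.9, 56.7 and 59.7 CPM against 49.9, 54.8 and 55.9 CPM, without overlap. Its log2 fold change was 0.11 (SE 0.0843, adjusted p = 0.410 by edgeR quasi-likelihood), and Nxt2 was at -0.25 with overlapping groups. Leaving out any of knockout libraries 1 and 3 and wild-type libraries 1 and 3 ended the call of Nxf1 (adjusted p 0.0590 to 0.122), and leaving out wild-type library 3 ended that of Nxf7 (0.0653).

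The libraries of a group did not behave alike across these genes. In 52 of the 52 tested genes knockout library 2 lay outside the range of knockout libraries 1 and 3, as it did in 85.5% of all tested genes. It was the lowest of all 6 libraries in 28 genes, among them Hnrnpa0, Hnrnpab and Sf3b5, and the highest in 3. Over the 52 genes the median size of the log2 ratio was 0.05 between knockout libraries 1 and 3. It was 0.26 and 0.27 between each of them and knockout library 2. Between knockout library 2 and wild-type library 2, the closest pair across the groups, it was 0.18. Over all tested genes these medians were 0.09, 0.26, 0.26 and 0.29. Wild-type library 1 was the highest of all 6 in 24 genes, among them Srsf5 and Hnrnph1. The shares of all tested genes in which these libraries were lowest or highest were not computed. The direction of knockout library 2 was not the same for every group: the median deviation from the wild-type mean was -0.56, -0.23 and -0.43 in knockout libraries 1 to 3 for THO genes, -0.03, -0.21 and -0.0036 for hnRNPs and -0.10, -0.29 and -0.05 for U2 genes. SR genes were the most even, at -0.27, -0.24 and -0.31.

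**Figure D4:**
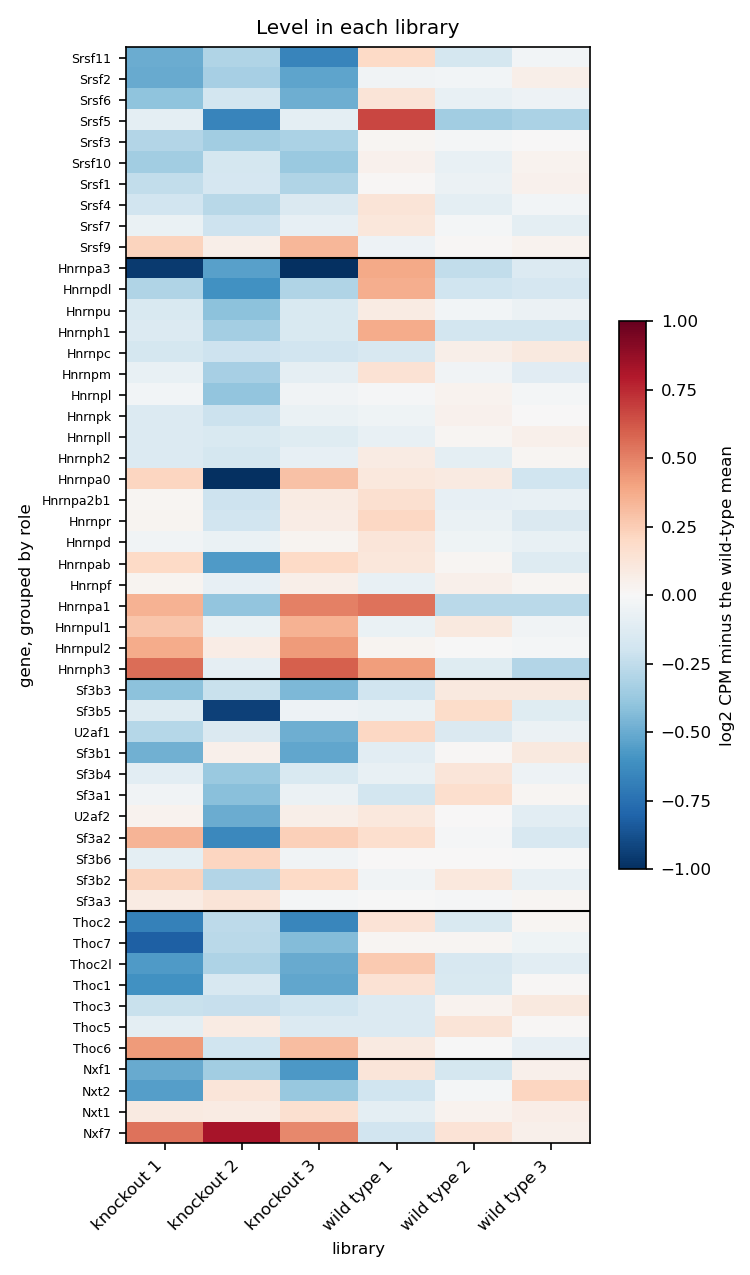
Log2 CPM of the 52 tested genes in each library minus the mean of the wild-type libraries, grouped by role from SR genes at the top to export receptors at the bottom; blue is lower, red higher, and colours end at -1 and 1. Knockout libraries 1 and 3 look alike, the darkest blue in the column of knockout library 2 is at Hnrnpa0 and Sf3b5, and the deepest red in that of wild-type library 1 is at Srsf5.

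The genes also differ from the rest in base composition. The median GC content of their longest transcripts was 45.3%, against 49.6% over all tested genes, and was lowest in THO (40.2%) and SR genes (42.2%) and highest in U2 genes (50%). Across the 52 genes, which share the same 6 libraries and are not independent, the log2 fold change correlated with GC content at 0.36. The deviation of single libraries correlated with it at 0.56, -0.35 and 0.40 in knockout libraries 1 to 3 and at -0.35, 0.03 and -0.28 in wild-type libraries 1 to 3. With the per-library trend with GC content and length removed, the correlation across the 52 genes was 0.02, the median log2 fold change -0.10, and 5 fell and 1 rose, against 17.9% of all tested genes called in either direction. Of the genes that passed, Hnrnpa3 (-0.71), Srsf2 (-0.48), Srsf11 (-0.39), Nxf1 (-0.50), Thoc2 (-0.27) and Nxf7 (0.64) were called in that fit too. The median of SR genes moved from -0.31 to -0.16, that of THO genes from -0.42 to -0.24 and that of hnRNPs from -0.10 to -0.01. The median over all genes moved from -0.02 to 0.02.

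**Figure D5:**
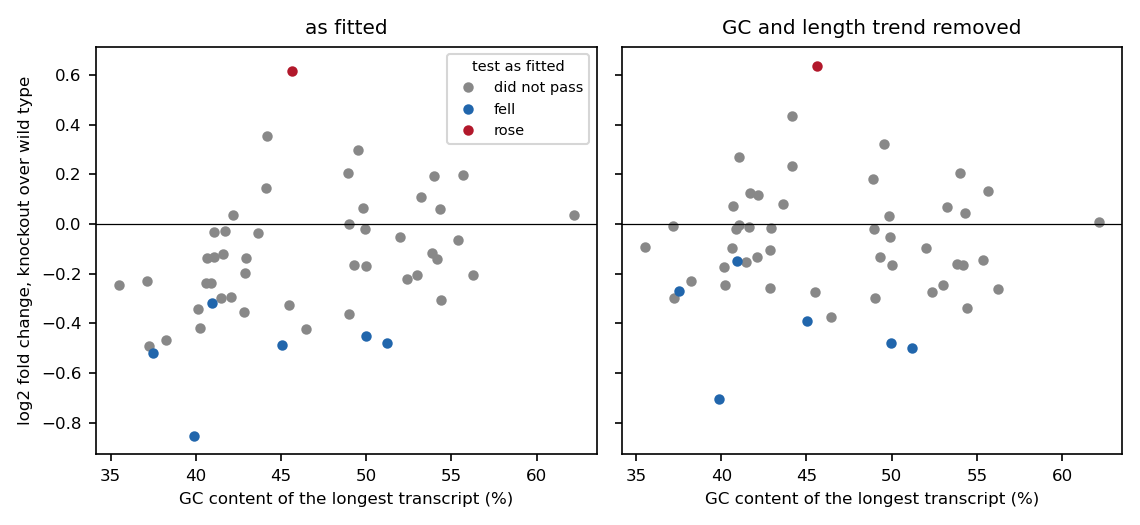
Log2 fold change, knockout over wild type, of the 52 tested genes against the GC content of the longest transcript in percent, as fitted (left) and with the per-library GC and length trend removed (right); colours give the test as fitted. The correlation with GC content is 0.36 on the left and 0.02 on the right, while Nxf7 stays highest and Hnrnpa3 lowest.

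Other genes of splicing and mRNA export, a list of 79 symbols that are none of the 56, were tested in the same fit. The table has 80 protein-coding rows for them, and of 79 tested 12 fell, 1 rose and 66 did not pass (edgeR quasi-likelihood test, against 7.48% and 7.69% of all tested genes), with a median log2 fold change of -0.13. The deepest was Magohb, a core protein of the exon junction complex. Magohb had 107, 72 and 82 counts in wild-type libraries 1 to 3 and 0 counts in each knockout library, at least 97.0-fold lower when the 3 knockout libraries together are given a floor of 3 counts. Its near-identical paralogue Magoh, named after its value was seen, was at 60.7, 79.8 and 56.5 CPM against 63.4, 61.6 and 68.6 CPM (log2 fold change 0.03, adjusted p = 0.917). Ptbp2, a repressor of neuronal exons, fell by 0.58 on the log2 scale (edgeR quasi-likelihood adjusted p = 0.0140), and the nuclear pore basket protein gene Tpr by 0.41 (0.0159). The export factor gene Rae1 fell by 0.38 (0.0224), the cap-binding gene Ncbp2 by 0.35 (0.0283), the speckle protein gene Srrm1 by 0.33 (0.0283) and the Sm core gene Snrpd1 by 0.35 (0.0318). Snrpf, another Sm core gene, rose by 0.72, at 87.1 ± 8.84 against 52.9 ± 11.2 CPM (SD, n = 3 each; 0.0201). Of these 8, Magohb kept its call without each library in turn, while Ptbp2, Tpr, Rae1, Ncbp2, Srrm1 and Snrpd1 lost it without knockout library 1, knockout library 3 or wild-type library 3, among others, and Snrpf without wild-type library 2 or 3 (adjusted p from 0.0512 to 0.207 over these fits). The 12 falls numbered 1 without knockout library 1, knockout library 3 or wild-type library 3, 2 without wild-type library 2 and 20 without knockout library 2, fits in which 2.53%, 2.46%, 2.71%, 3.05% and 13.1% of all tested genes fell.

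The authors' deposited table gives adjusted p-values for 53 of the 56 genes and calls 11 of them under 0.05, 10 lower and 1 higher. Of all genes with an adjusted p there, 9.98% were called in either direction. That share is over 24998 genes, more than the 14842 tested here, and takes in genes too low to test here. With DESeq2 on the filtered counts, 9.79% of 14838 genes fell and 9.84% rose. All 7 genes called here are among the 11, with deposited log2 fold changes of -0.75 for Hnrnpa3, -0.42 for Srsf2 and 0.58 for Nxf7 in the authors' deposited table. The other 4 in the authors' deposited table are Srsf6 (-0.32), Thoc7 (-0.44), Thoc2l (-0.41) and Sf3b3 (-0.33).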

How the data were processed

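RNA of 3 Matr3 knockout and 3 wild-type libraries was measured by RNA-seq with an mRNA-seq kit, per the labels' protocols. The authors deposited 1 table for the series, with raw counts per gene, FPKM, a signal that is each group's mean of scaled counts, a log2 fold change and p-values, per the file headers. Aligner, counter, annotation release and the authors' test were not given in the sources used here. As builds, GRCm38 and mm10 stand in the submitters' processing notes, but 2 of the 56 genes have the same start and end in GENCODE M21 (GRCm38), so printed gene coordinates are the table's own and their build is unsettled.

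edgeR 4.0.16 in R 4.3.3 was run on the counts: filterByExpr left 14842 of 27065 genes with a count, TMM scaled the libraries, and the quasi-likelihood test contrasted the 2 genotypes without covariates. Adjustment was by Benjamini-Hochberg over all tested genes, with calls under 0.05. SE follows from the F statistic. CPM carries an SD over 3 libraries, and FPKM as deposited was used to compare levels between genes. A gene at 0 was given a floor of 3 counts, which covers counting error only. GC content is that of the longest GENCODE M21 transcript, and its trend was removed with splines (4 degrees of freedom each for GC and length) as offsets. Pseudogene copies were found with blastn 2.17.0. Protein sequences were not used here.

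Genes named with values in every library are those called, and in each role group the highest per length on its own row and the smallest p that missed the threshold. From the wider list 8 were named by smallest p, of which Magohb alone is given in every library. All other members are given by log2 fold change. Pseudogene copies, Magoh and members given with single library values outside this rule (Srsf5, Sf3b1, Hnrnpa1, Hnrnpl and U2af1) were named after their values were seen. The genes and lists were chosen with earlier results of these data known. Alternatives were RLE factors, library totals, no filter, a minimum mean of 1 CPM, only protein-coding genes, DESeq2 1.42.0, limma 3.58.1 voom, limma on log2(FPKM + 1), an adjusted p of 0.01, the replicate number as a block, the GC and length trend removed, and libraries left out. Summing of pseudogene copies was added after seeing the data. Scripts were tested on simulated counts.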

Additional observations from a re-analysis of the deposited data

How the results depend on the processing

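The 7 genes that passed kept their direction under all 21 alternatives, but each lost its call under at least 1 of them. These genes were chosen for passing, their groups did not overlap, and the adjusted p of 0.01 uses the same fit. Their direction could thus hardly turn in most of these alternatives. Beside 6 lower and 1 higher, the genes called numbered 10 lower with protein-coding genes only (10.1% of all genes fell), 11 lower with DESeq2 (9.79%), and 24 lower and 14 higher with both knockout library 2 and wild-type library 1 left out (25.7% and 25.3%). At an adjusted p of 0.01 they numbered 0 and 0 (2.52% and 2.34%). Leaving out single libraries gave 0 to 16 lower and 0 to 5 higher. Their median log2 fold change of -0.17 was -0.10 after removal of the GC and length trend, also together with the replicate block or with pseudogene copies summed, and -0.11 without those 2 libraries. In the wider list, 12 lower and 1 higher became 19 lower with DESeq2, 6 lower with limma on log2(FPKM + 1), 39 lower and 19 higher without the 2 libraries (25.7% and 25.3% of all genes), and 1 and 0 at an adjusted p of 0.01. Leaving out single libraries gave 1 to 20 lower and 0 to 6 higher. Hnrnpab, at -0.02, turned to 0.029 with no filter on low counts, 0.25 with those 2 libraries left out, 0.20 with only knockout library 2 left out and 0.06 with only wild-type library 1 left out. The cause of these shifts was not tested.

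With the replicate number as a block, 2 of the 52 genes and 7 of the wider list were lower, and 3 and 6 when the trend was removed as well. The deviations of same-numbered libraries from their group means correlated at 0.17, -0.03 and -0.20 across genes, which are not independent. Knockout library 1 correlated best with wild-type library 1, while knockout library 2 correlated best with wild-type library 3, at 0.28. The labels do not say whether libraries of the same number belong together, and these values cannot settle it. Over all genes the block gave 1599 calls against 2252.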
